A study of Mus musculus with 3 samples.

Results

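The nuclear factor I (NFI) genes Nfia, Nfib, Nfic and Nfix encode the 4 transcription factors of 1 mouse family. Peaks of the forkhead factor Foxf2 were given to a gene when the nearest protein-coding transcription start site (TSS; GENCODE M21 basic transcripts, mm10) to the peak's midpoint belonged to it. By this rule 46 of 25704 peaks (0.179%) fell to the family, and all 4 genes had at least 1. The peaks came from tongues of mouse embryos at E12.5 in which both copies of the endogenous Foxf2 gene (genotype Foxf2FLAG/FLAG) carried a 3xFLAG tag made by CRISPR editing. Chromatin was precipitated with an anti-FLAG antibody in 2 libraries, and 1 input library without antibody served as the control for peak calling. The labels state 75 tongues on each of the 3 samples, so tissue was pooled, and give no strain or sex. ChIP and input came from the same tagged genotype, no ChIP from untagged tissue was analysed here, and the tongue was taken whole, so the peaks are not assigned to a cell type. The peak list holds 1 score per peak for the series and no value per library, so no replicate spread could be given and no test was run.

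NFI proteins bind DNA as dimers of any pair of family members, through a conserved N-terminal domain that recognises TTGGC and its reverse complement GCCAA 5 bases apart, or a single TTGGCA half-site. They are known for driving progenitors towards maturation: Nfia in glia, Nfib in lung and brain, Nfic in tooth roots and Nfix in fetal muscle. The tongue is built from mesenchyme derived largely from the neural crest, where Foxf2 is expressed, and from muscle precursors that migrate into it.

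The sequences of the leading peaks, as called in the list, are given first. Those of the highest-scored peak of each gene are printed, with 2 others: the second peak of Nfib, which scored almost as high as the first, and the peak of Nfia at an alternative start. They read 5′ to 3′ on the plus strand of mm10, taken from the reference genome, and capitals mark every forkhead core. The core was searched on both strands as ATAAACA or ATAAATA or GTAAACA or GTAAATA, so a minus-strand match appears as its reverse complement, for example TGTTTAC.
Nfib, intron 8, score 60.6, chr4:82327168-82327380: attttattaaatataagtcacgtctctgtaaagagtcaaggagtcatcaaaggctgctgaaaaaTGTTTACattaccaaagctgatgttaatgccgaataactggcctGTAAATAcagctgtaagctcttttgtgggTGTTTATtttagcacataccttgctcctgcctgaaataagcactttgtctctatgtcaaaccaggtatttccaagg
Nfib, intron 10, score 60.5, chr4:82306162-82306374: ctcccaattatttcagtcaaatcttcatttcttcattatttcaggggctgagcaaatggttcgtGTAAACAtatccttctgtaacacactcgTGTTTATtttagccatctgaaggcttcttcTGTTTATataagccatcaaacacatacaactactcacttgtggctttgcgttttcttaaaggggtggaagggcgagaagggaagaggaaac
Nfia, intron 2, score 38.3, chr4:97868906-97869118: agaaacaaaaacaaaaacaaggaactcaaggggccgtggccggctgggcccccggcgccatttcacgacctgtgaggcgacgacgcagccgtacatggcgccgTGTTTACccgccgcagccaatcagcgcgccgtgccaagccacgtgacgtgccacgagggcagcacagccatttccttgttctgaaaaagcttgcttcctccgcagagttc
Nfia, upstream, score 34.8, chr4:97772302-97772514: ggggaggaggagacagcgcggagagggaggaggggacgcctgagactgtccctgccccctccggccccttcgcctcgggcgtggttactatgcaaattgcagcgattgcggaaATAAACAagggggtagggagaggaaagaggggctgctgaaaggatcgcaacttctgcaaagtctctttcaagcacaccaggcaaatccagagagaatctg
Nfic, intron 2, score 14.1, chr10:81412194-81412406: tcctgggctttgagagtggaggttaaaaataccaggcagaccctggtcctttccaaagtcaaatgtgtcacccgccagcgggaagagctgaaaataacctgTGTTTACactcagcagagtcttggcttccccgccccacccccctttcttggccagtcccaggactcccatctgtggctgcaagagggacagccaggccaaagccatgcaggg
Nfix, intron 2, score 19.4, chr8:84770653-84770865: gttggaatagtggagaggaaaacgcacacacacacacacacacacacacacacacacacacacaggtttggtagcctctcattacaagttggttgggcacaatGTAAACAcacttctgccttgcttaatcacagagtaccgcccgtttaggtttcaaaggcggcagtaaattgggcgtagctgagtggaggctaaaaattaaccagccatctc

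Both leading Nfib peaks carried 3 cores, at different spacings, whereas those of Nfia, Nfic and the Nfix intron carried 1 each. In the Nfia, Nfic and Nfix introns the single core was GTAAACA, and it lay within 2 bp of the peak centre.

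Nfib, on the minus strand of chromosome 4 (82290173 to 82705750), was the richest member with 28 peaks. Nfia, on the plus strand of the same chromosome (97772734 to 98118874), had 14. Nfix on chromosome 8 (84699876 to 84800344, minus strand) had 3, and Nfic on chromosome 10 (81396186 to 81455635, minus strand) had 1. Of 21917 protein-coding genes, 0.119% had at least 28 peaks, 1.12% at least 14, 13.2% at least 3 and 37.3% at least 1. Nfib and Nfia thus stood among the genes with the most peaks, while the count of Nfic was reached by many genes.

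The members differ in the room they have for peaks. The territory of a gene, the bases nearer to its TSSs than to those of any other protein-coding gene, measured 709 kb for Nfib and 346 kb for Nfia, but 63.4 kb for Nfix and 54.0 kb for Nfic. Per 100 kb of territory, Nfix had 4.73 peaks (exact Poisson 95% interval 0.976 to 13.8), Nfia 4.04 (2.21 to 6.78), Nfib 3.95 (2.62 to 5.71) and Nfic 1.85 (0.0469 to 10.3). These intervals, like all others here, cover the counting of peaks only. The 4 densities overlapped in their intervals, so the order of the members by count was not an order by density. The density of the whole list over the same territories was 0.943 peaks per 100 kb, below the lower bounds of Nfia, Nfib and Nfix and inside the interval of Nfic.

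**Figure D1:**
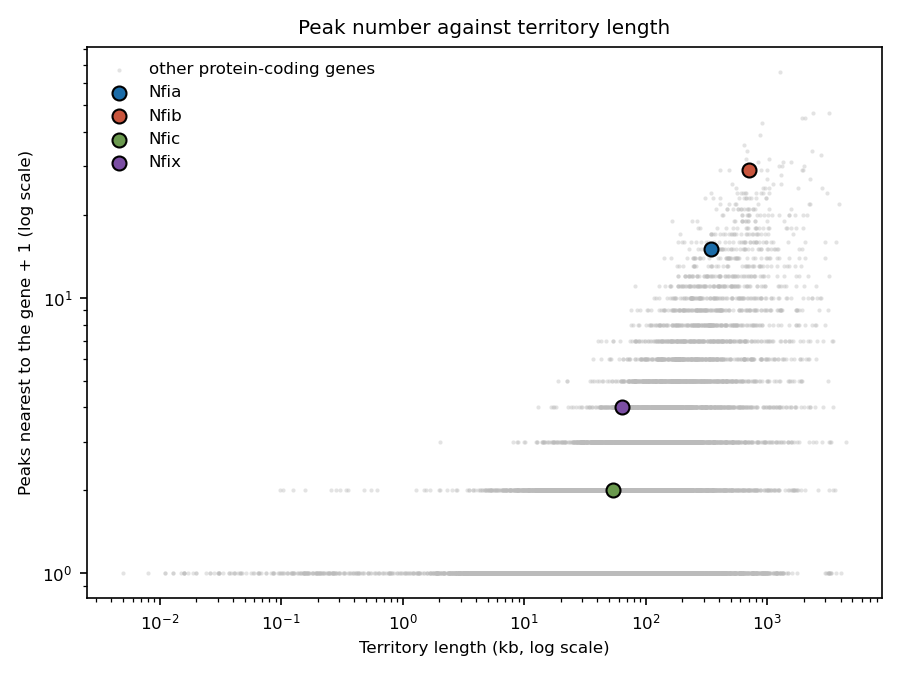
Peaks nearest to each protein-coding gene plus 1 (log scale) against the length of the gene's territory in kb (log scale), 1 point per gene, with the 4 NFI genes as large coloured points. Nfib (28 peaks, 709 kb) and Nfia (14 peaks, 346 kb) lie near the upper edge of the cloud for their territory length. Nfix (3 peaks, 63.4 kb) and Nfic (1 peak, 54.0 kb) lie lower, where territories are shorter. Within deciles of territory length, 1.19% of genes had as many peaks as Nfib, 10.6% as Nfia, 3.1% as Nfix and 34.4% as Nfic.

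The members were also set against genes with a similar amount of room. Genes of the highest decile of territory length (279 to 4426 kb) had a median of 4 peaks, and 1.19% of the 2192 genes in it had as many as Nfib and 10.6% as many as Nfia. A density as high as that of Nfib or Nfia was found in 1.87% and 1.82% of them. Nfix and Nfic both fell in the sixth decile (47.1 to 63.5 kb), where the median gene had 0 peaks, 34.4% of genes had at least 1 and 3.1% had at least 3. Counting instead every peak within 100 kb of a gene's TSSs, whichever gene it was nearest to, Nfib had 11, Nfix 10, Nfia 8 and Nfic 1, against a median of 1 over all genes. As many were found at 0.767%, 1.18%, 2.8% and 71.5% of genes. In this window Nfix, whose own territory is small, stood next to Nfib, and Nfic at the median.

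Nfib peaks were spread widely on both sides of its start sites. Its basic transcripts begin at 3 positions between 82505308 and 82505770, and none of its peaks lay within 10 kb of them. The nearest was 21.6 kb downstream in intron 2 (score 15.4). Of the 28 peaks, 3 lay upstream (at -33.2, -99.7 and -157 kb, where negative distances are upstream), 16 inside the longest basic transcript and 9 beyond its 3′ end, the farthest 504 kb from the start. The median distance to the nearest Nfib TSS was 167 kb, against 51.3 kb for all peaks.

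The Nfib scores ran from 10.3 to 60.6 with a median of 15.8, close to the median of 16.2 over all peaks. Its top pair, 60.6 and 60.5, ranked 850 and 853 in the list, and the third Nfib peak scored 28.3. The top pair lay 21.0 kb apart in introns 8 and 10, toward the 3′ end of the gene, and both were joined by a weaker peak: 18.4 in intron 7, 1.12 kb from the first, and 25.5 in intron 10, 2.02 kb from the second. The highest-scored peak outside the gene, at 28.3, lay 285 kb downstream of the start between genes (chr4:82220252-82220464) and held 1 core. One more peak with 3 cores lay in the antisense noncoding gene Gm11266, at -33.2 kb (score 16.3), with 2 of its cores overlapping in repeat-masked sequence. Another, at 16.8, was counted as a promoter peak because it lay at the start of the lincRNA Gm5860, 440 kb from the Nfib start, and it held no core. A peak of 13.2 fell in exon 11, the last exon, outside the coding sequence of all 3 transcripts that include it.

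Nfia had 12 of its peaks downstream of its basic starts, within its introns, and 2 just upstream of them. Its 5 basic start positions lie between 97777608 and 97777834, and 3 of its peaks were within 10 kb of them: at -5.2 kb (score 34.8), -4.65 kb (26.1) and 3.33 kb (14.5). Nfix was the only other member with peaks within 10 kb of its starts, and 19.4% of all genes had one. In the comprehensive annotation the upstream pair also falls inside E130114P18Rik, a gene on the opposite strand. The other 12 peaks besides the upstream pair lay in introns 1 to 4, as far as 226 kb from the start, and the part of the gene beyond held 2 more that were nearer to Tm2d1. Scores ran from 10.1 to 38.3 with a median of 16.8. The 3 highest were 38.3 in intron 2 (rank 2631), 34.8 in the upstream pair and 31.6 in intron 2, 164 kb downstream, which held no core.

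Nfix had all 3 of its peaks within 7.51 kb of a start. They scored 19.4, 19.3 and 15.7, beside the starts of 2 shorter transcripts that begin inside the gene. The first and the last lay in intron 2, at 2.64 and 7.51 kb downstream. The remaining peak was the only peak of the family at a promoter of a member, and its 2 overlapping cores lay in repeat-masked sequence. Promoters were taken as the 1000 bp before a TSS and the 100 bp after it. With the Gm5860 peak this made 2 promoter peaks of 46 (4.35%), against 8.52% of all peaks. A further 4 peaks, with scores of 13.3 to 22.3, lay inside Nfix but were nearer to the starts of Lyl1 or G430095P16Rik, neighbouring genes. Nfic had its single peak in intron 2, 14.8 kb downstream of the nearest start, with a score of 14.1 that is below the list median.

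**Figure D2:**
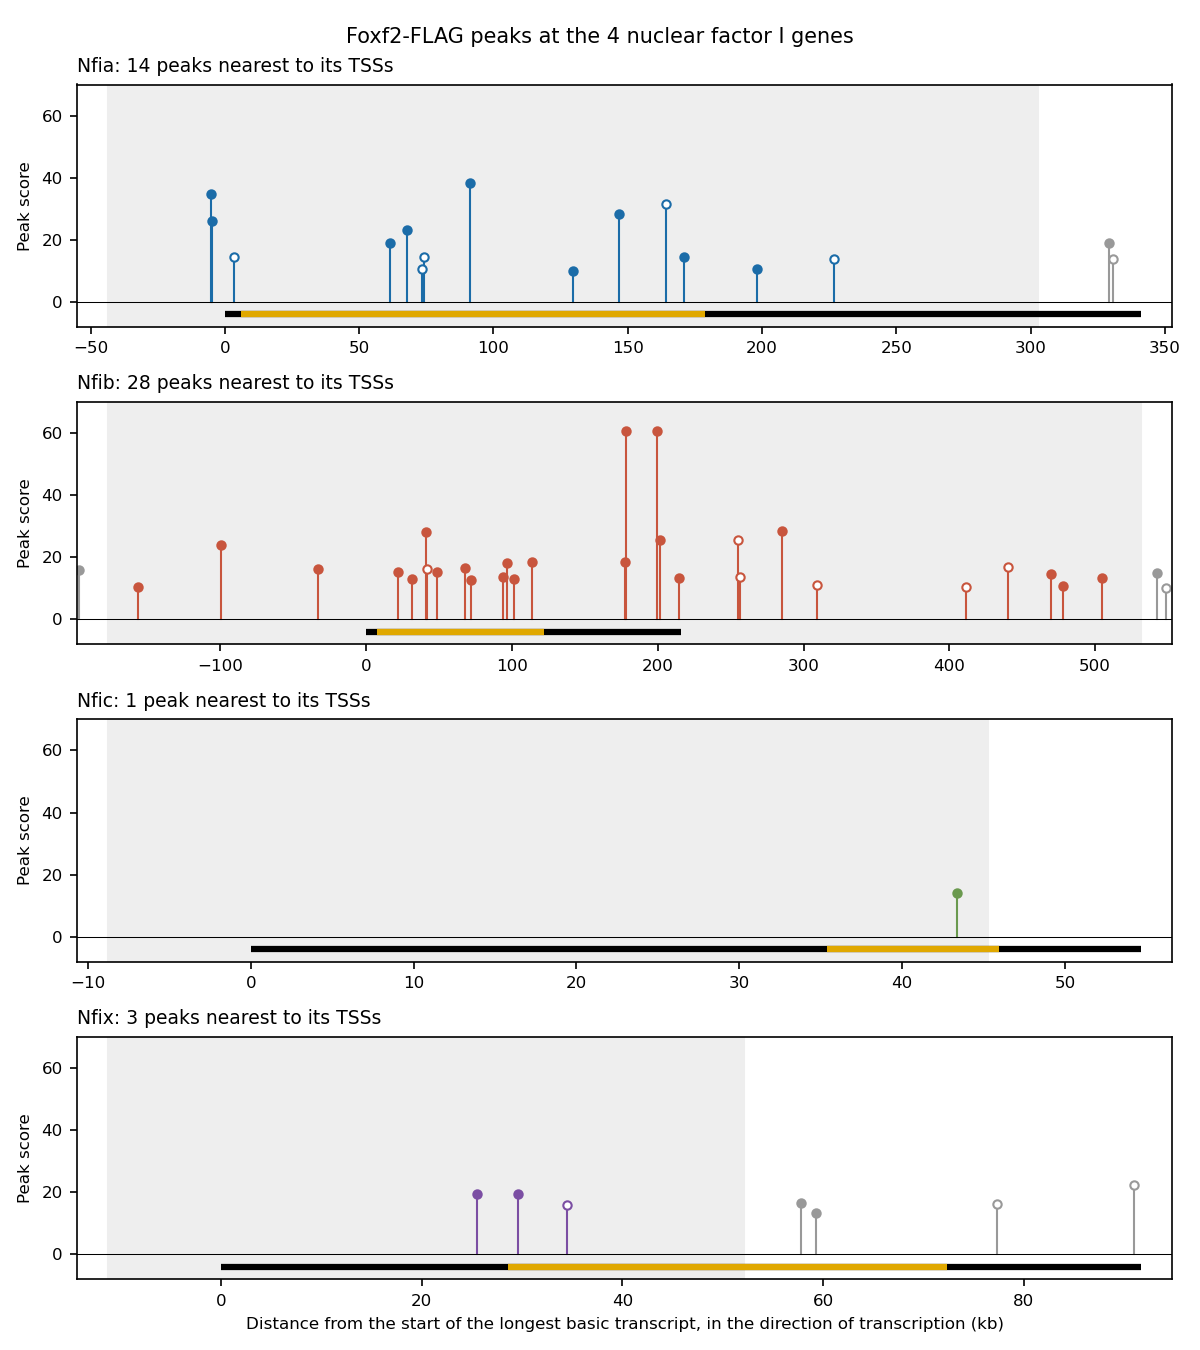
Peak score against distance in kb from the start of the longest basic transcript, in the direction of transcription, with 1 panel per gene and a different distance scale in each. Coloured stems are peaks nearest to the gene and grey stems peaks nearest to another gene, filled circles hold a forkhead core and open circles do not, the grey field is the territory, the black bar the transcript and the yellow bar its intron 2. Nfib peaks run far beyond the 3′ end and the pair at 60.6 and 60.5 stands above the rest, while Nfix and Nfic hold 3 and 1 peaks, none above 19.4.

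In all, 22 of the 46 peaks (47.8%) scored at or above the list median, against 50.1% of all peaks, and 2 reached the highest decile (38.6 or more), against 10.1%. Both were Nfib peaks, and the top Nfia peak at 38.3 fell just short. Nfib and Nfia thus stood high in the number of their peaks, while the scores of most of those peaks lay in the range usual for the list. The focus ratio, the caller's measure of how tightly the signal gathers at the centre, had a median of 0.7545 in the family and 0.783 in the list. It was 0.87 for the Nfic peak and 0.825, 0.847 and 0.856 for the Nfix peaks, while the Nfia peaks ranged from 0.636 to 0.881 and the Nfib peaks from 0.591 to 0.872.

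**Figure D3:**
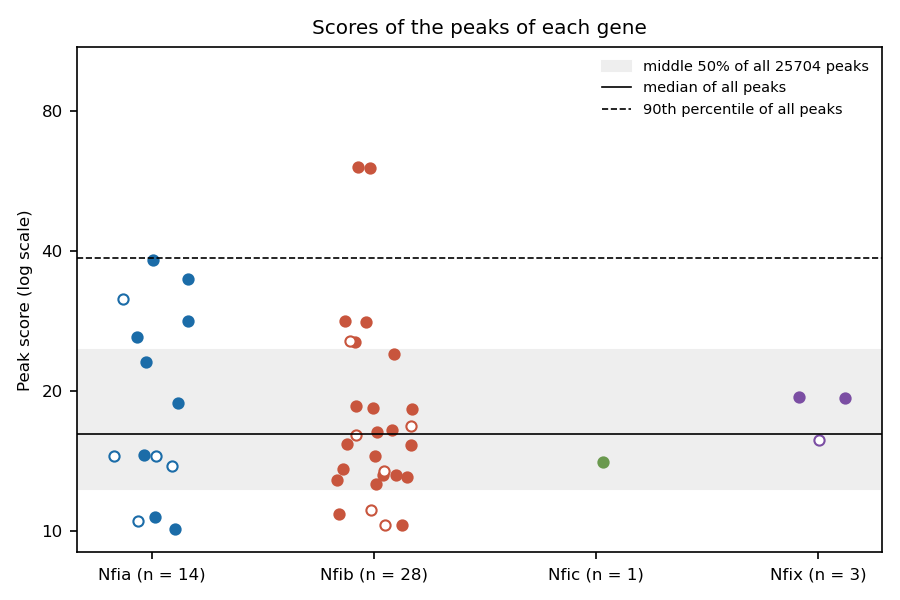
Scores of the peaks of each NFI gene on a log scale, 1 circle per peak (filled with a forkhead core, open without; sideways position has no meaning), with the median (line), middle 50% (grey) and 90th percentile (dashed) of all 25704 peaks. Only 2 Nfib peaks, at 60.6 and 60.5, lie above the dashed line at 38.6.

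The 4 genes share a structure, and many of the peaks lay in the same part of it. In the longest basic transcript of each member, exon 2 is 532 bp long, and intron 2 behind it held peaks in all 4 genes. Of the 46 peaks, 23 lay there: 11 of Nfib, 9 of Nfia, 2 of Nfix and the 1 of Nfic. Intron 2 makes up 53.1%, 50.6%, 47.8% and 19.4% of the transcript span in these genes and holds much of the sequence in 3 of them, so densities are given next. Counting every peak inside whichever gene it was nearest to, intron 2 held 25 of the 38 peaks in the 4 transcript spans. Its density was 9.6 peaks per 100 kb in Nfib (exact Poisson interval 4.79 to 17.2), against 4.95 (1.61 to 11.6) in the rest of the transcript. In Nfia it was 5.21 (2.38 to 9.89) against 2.97 (0.963 to 6.92), and in Nfix 9.13 (2.49 to 23.4) against 6.26 (1.29 to 18.3). Nfic had 1 peak in intron 2 (9.45 per 100 kb) and 0 in the rest. The density was higher in intron 2 than in the pooled rest in each gene, but the intervals overlapped in every one. Taken singly, some shorter introns of Nfib, Nfia and Nfix with 1 or 2 peaks were denser than intron 2, and others held 0. The comparison was not planned beforehand, and no share for second introns of other genes is given here.

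**Figure D4:**
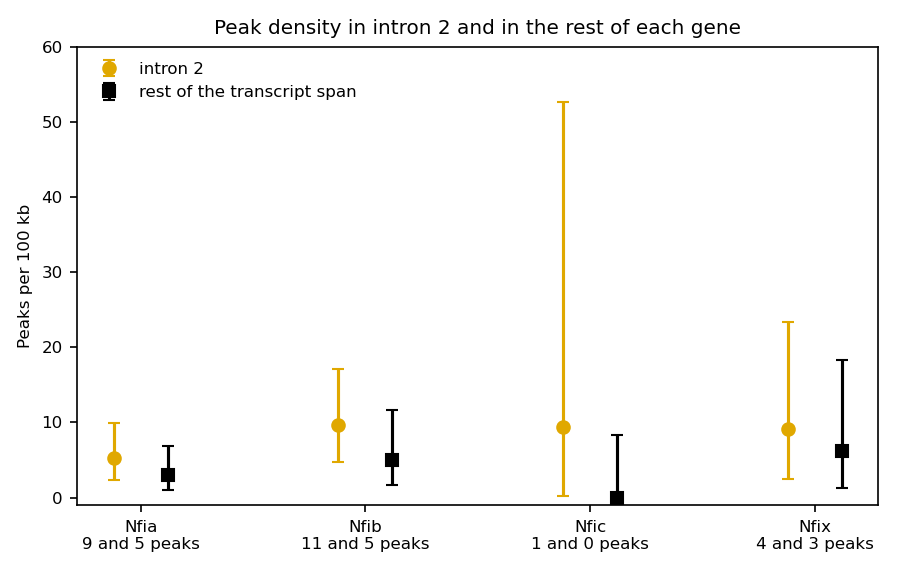
Peaks per 100 kb in intron 2 (yellow circles) and in the rest of the longest basic transcript (black squares) of each NFI gene, with exact 95% Poisson intervals and the numbers of peaks below the names. Intron 2 is the higher of the pair in each gene (9.6 against 4.95 in Nfib), and the intervals overlap.

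Some starts of NFI transcripts outside the basic set had a peak beside them, a comparison added after the peaks had been seen. The comprehensive GENCODE annotation has an Nfia transcript starting at 97772734, between the upstream pair, and the centre of the 26.1 peak lay 225 bp downstream of this start. RefSeq places another Nfia start at 97772448, 40 bp downstream of the centre of the 34.8 peak. For Nfib, the transcript Nfib-212 begins at 82705750, far upstream of the others, and a peak with a score of 19.2 was centred 161 bp upstream of it (chr4:82705805-82706017). This peak held no core, and by the rule it belongs to Zdhhc21. With the Nfix promoter peak, 3 of the 22 distinct protein-coding starts of the 4 genes had a peak centre within 500 bp, against 7.62% of all 54355 such starts. No basic start of Nfia, Nfib or Nfic had one that close.

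Neighbouring genes bordered the family's territories with peaks of their own. E130114P18Rik, transcribed away from Nfia on the minus strand, had 11 (3.14 per 100 kb of territory), with a highest score of 62.4 (chr4:97596884-97597096, 1 core), above every peak of the family. RefSeq annotates Nfia transcripts that begin at 97578066 and 97581943, inside that neighbour's territory. With RefSeq starts Nfia had 31 peaks and not 14, and all 11 of the E130114P18Rik peaks were among the 17 added, with 6 from Gm10192. Of the 17, 14 held a core. Mpdz, the neighbour beyond the 3′ side of Nfib, had 23 peaks (2.85 per 100 kb) and Zdhhc21 on the other side 3 (1.58). Tm2d1 beside Nfia had 7. The neighbours of Nfic, Smim24 and Celf5, had 0. Beside the Nfix territory, G430095P16Rik had 3, all of them inside the Nfix gene body, and Dand5 had 0.

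Gaps between neighbouring peaks were shorter at Nfib and Nfia than in the whole list. The median gap was 19.1 kb for Nfib and 17.1 kb for Nfia, against 39.5 kb in the whole list. Gaps of a gene were taken only between peaks of that gene, whereas those of the list also ran between genes and reached 89990 kb. Nfib and Nfia also had more peaks per 100 kb of territory (3.95 and 4.04) than the list (0.943), which by itself shortens gaps. Whether their peaks clustered beyond this density was not tested. Gaps of up to 10 kb made up 11 of 27 in Nfib and 6 of 13 in Nfia, against 21.0% of all gaps. The closest pairs were 502 bp apart in Nfib intron 2 (scores 16.1 and 28.2) and 551 bp apart upstream of Nfia (34.8 and 26.1).

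Within 200 bp windows around the peak centres, 34 of the 46 peaks held the forkhead core, or 73.9% (exact Clopper-Pearson 95% interval 58.9 to 85.7). All peaks had it in 72.5%, within that interval. Windows of equal width centred 2000 bp to either side of the 46 peaks held it in 20 of 92, or 21.7%. By gene, the core was in 22 of 28 Nfib peaks, 9 of 14 Nfia peaks, 2 of 3 Nfix peaks and the Nfic peak. The narrower GTAAACA was in 15 peaks (32.6%, interval 19.5 to 48.0), against 27.4% of all peaks and 3 of the 92 flanks. Flanks were not cleared of other peaks. The Nfib peaks 2022 bp apart in intron 10 each fell in a flank of the other, with their GTAAACA. Peaks with 3 or more cores numbered 3, all at Nfib (6.52% of the family, against 4.5% of all peaks).

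The peaks held 46 cores in all, 20 ATAAACA, 15 GTAAACA, 6 ATAAATA and 5 GTAAATA. Of these, 25 were centred within 20 bp of the peak centre, while 58.0% of the cores of all peaks were. The reference marks 6 of the 46 cores as repeat sequence, and 31 of the 34 peaks with a core held 1 outside repeats. Higher-scored peaks had the core more often: 19 of the 22 at or above the list median (86.4%, interval 65.1 to 97.1) and 15 of the 24 below it (62.5%, interval 40.6 to 81.2). These intervals overlap, and all peaks gave 78.4% and 66.6%. Of the 5 Nfia peaks without a core, 4 scored 14.5 or less.

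NFI recognition sequences were also counted in the peaks at the NFI genes themselves. The palindrome of TTGGC, 5 bases and GCCAA was in none of the 46 peaks (upper exact bound 7.71%) and in 0.0739% of all peaks. The half-site TTGGCA was in 10 peaks (21.7%, interval 10.9 to 36.4), against 12.1% of all peaks, a value inside the interval, and 14 of 92 flanks (15.2%). Of these 10 peaks, 7 belonged to Nfib, 2 to Nfia and 1 to Nfix. One in Nfib intron 2 (score 13.1, chr4:82404264-82404476) held 4 half-sites and 1 core. The top Nfia peak held 1, centred 31 bp from the peak centre, where its core lies. The E-box CATCTG, a sequence of basic helix-loop-helix factors, was in 5 of 46 peaks (10.9%, interval 3.62 to 23.6), below the 28.0% of all peaks, which lies outside the interval. The flanks of the family's peaks held it in 14 of 92 (15.2%) and those of all peaks in 14.9%, so it was no more common at the centre of the family's peaks than beside them. Of 10 sequences searched, CATCTG was the only one with the share of all peaks outside the family's interval, which was not adjusted for the number searched. CAGCTG was in 6 peaks (13.0%, all peaks 18.7%), the TEAD sequence GGAATG in 5 (10.9%, 15.1%), the TALE homeodomain sequence TGACAG in 6 (13.0%, 17.9%) and the AP-1 sequence TGANTCA in 2 (4.35%, 5.75%). The median GC content was 40.5% in the family's peaks and 43.5% in the list, and 21.7% of them were free of repeat-masked bases, against 36.8%. The part of these in the motif shares was not tested.

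**Figure D5:**
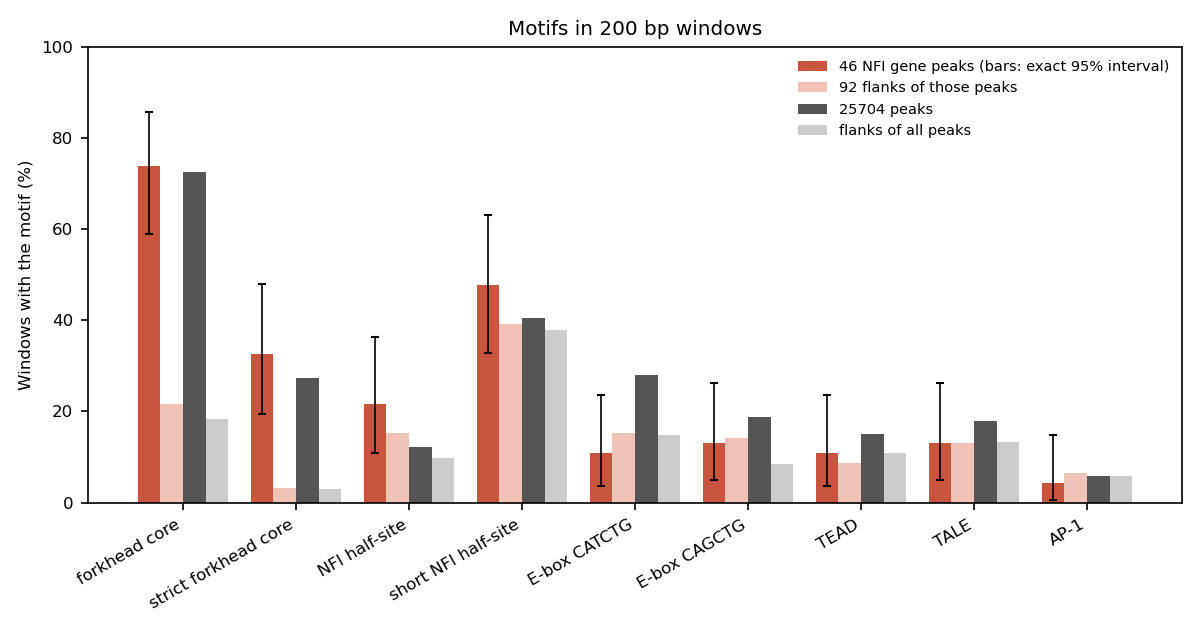
Share of 200 bp windows that hold each motif, for the 46 NFI gene peaks (with exact 95% intervals), their 92 flanks, all 25704 peaks and the flanks of all peaks. The forkhead core stands at 73.9% in family peaks and 21.7% in their flanks, and CATCTG at 10.9% against 28.0% in all peaks.

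By basic transcripts of any gene type, 33 of the 46 peaks lay in introns (71.7%, against 46.1% of all peaks). Another 10 lay outside every such transcript (21.7%, against 41.8%), 2 at promoters and 1 in an exon. The introns include those of the noncoding genes Gm11264, Gm5860 and Gm11266. Some of the 10 fell inside longer annotated gene spans, namely the upstream pair of Nfia and the Nfib peaks at -99.7 and -157 kb. For Nfia and Nfib the genes themselves are long, at 346 and 416 kb. The genes most like each member in peak number, territory length and highest score together (Euclidean distance over the 3 log2 values) were Bicc1 (distance 0.106, 14 peaks) and Zfp637 (0.262, 12 peaks) for Nfia, and Rnd3 (0.221, 31 peaks) and Lrmda (0.256, 30 peaks) for Nfib. For Nfix they were Mas1 and Gm5269, with 3 peaks each, and for Nfic Bicral and Gm17651, with 1 each.

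Genes linked to NFI factors in other tissues, as regulators, partners or targets, were counted from a list of 25. At least 1 peak was found at 14 of them (56%), with a median of 1 peak, against 37.3% and a median of 0 for all protein-coding genes. Sox9, which acts upstream of Nfia in glia, had 29 (highest score 90.4), and Hes1, a Notch effector that NFI factors repress in neural progenitors, had 16 (243.9). Sox6, which works with Nfix in fetal muscle, had 13 (70.8), and Klf4, a factor acting downstream of Nfic in tooth cells, had 9 (45.9). Apcdd1, an NFI target in glia, had 7 and the airway gene Scgb1a1 had 3. The other 8 had 1 or 2 each. No peak was nearest to Aqp5, Ckm, Dspp, Edn2, Eno3, Gfap, Jund, Mmd2, Mstn, Pparg or Sftpc, which include the muscle genes Ckm, Eno3 and Mstn. The list was not matched for territory, and Sox9 alone has 1250 kb. It was also drawn up with earlier results of these data known, so its share is a description of these genes only.

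The count of Nfib also depended on which starts compete for a peak. When starts of noncoding genes were allowed, 26 of its 28 peaks went to them, 14 of these to n-R5s188, a ribosomal RNA entry inside Nfib, and 2 remained. Counted inside the annotated gene body, Nfib had 20 peaks, Nfia 15, Nfix 7 and Nfic 1.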

How the data were processed

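Anti-FLAG ChIP-seq of E12.5 mouse tongue gave 2 ChIP libraries and 1 input. Per the submitters' processing notes, the tools were Bowtie2 2.4.1 as aligner, SAMtools 1.7.1 and HOMER as peak caller, and the build was mm10. The input served as the caller's control, per the labels. Not given in the sources used here: caller parameters, sequencing depth and whether libraries were pooled. The deposited table holds 25707 peaks, 212 bp wide (end minus start), each with the authors' peak score, whose scale is not stated, and, per the file headers, a focus ratio, read as a fraction between 0.499 and 0.999. No column of a single sample was given, so nothing was tested. An unplaced contig carried 3 peaks, which did not enter.

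Coordinates were used as deposited, with GRCm38 sequence and GENCODE M21 basic transcripts. Motif windows were the 200 bp around each midpoint, read on either strand. Shares carry exact Clopper-Pearson intervals and counts exact Poisson intervals, both at 95%. Members, lists and motifs were chosen with earlier results of these data known. All members, the 3 highest-scored peaks of each, the peak nearest to a TSS, promoter peaks, peaks with 3 or more cores, bordering genes, the 2 most like genes and the 6 linked genes with the most peaks are named; other peaks singled out were chosen after their values were seen. Assignment of peaks to genes, territories and the motif search were checked on simulated data. Alternatives covered peak list, distance limit, TSS set, assignment, window, motif form and promoter width. Software was pandas 2.3.3, numpy 2.4.6, matplotlib 3.10.9 and scipy 1.17.1 under Python 3.11.15. A sequence and the comparison with other gene families are not reported here.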

Additional observations from a re-analysis of the deposited data

How the results depend on the processing

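No paired analysis was possible because the peak list gives no values per library. For the same reason no replicate could be left out. With peaks at or above the median score, Nfia had 7, Nfib 13, Nfic 0 and the 4 genes 22 peaks, and the density was 2.02 per 100 kb for Nfia, 1.83 for Nfib and 0 for Nfic. Within 50 kb of a TSS, Nfia had 3, Nfib 6 and the family 13. Within 10 kb, Nfia had 3, Nfib 0, Nfic 0 and the family 6. With noncoding starts competing, Nfib had 2, Nfic 0 and the family 17. With 1 TSS per gene, Nfic had 0 peaks and a density of 0. Inside gene bodies Nfix had 7. With RefSeq starts, tried only once the peaks were known, Nfia had 31 and Nfix 5. The forkhead core was in 32.6% of the family's peaks in its strict form and in 86.4% of the higher-scored ones. TTGGCA was in 6.52% within the central 100 bp, TGGCA in 47.8% and the palindrome in 0%. The other alternatives, among them the comprehensive annotation (also chosen after seeing the data), the unmasked territory and the wider promoter, kept counts within 1.5 times the value given or shares and densities within its interval. Fewer peaks enter by construction under the score and distance limits, and fewer starts with 1 TSS per gene. Noncoding starts instead add competitors for each peak. The cause of the lower TTGGCA share in the narrow window, beyond its smaller width, was not tested. Depth is unknown, so weaker binding at a gene without a peak could not be measured.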
